A study of Mus musculus with 4 samples.

Results

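This comparison sets untreated mouse embryonic fibroblasts (MEFs, mesenchymal cells cultured from the embryo) labelled as lacking Mll1 against wild-type MEFs, in 1 RNA-seq library each. Its members are the genes with 1 RPKM or more (reads scaled to transcript length and library size) in at least 1 of the 2 libraries, with the most abundant transcript entry standing for each gene symbol. They number 11004 of the 16612 genes that could be given a symbol, whereas 11115 genes reach that level in at least 1 of the 4 libraries of the series. The wild-type cells are labelled Mll1+/+ and the others Mll1-/-, all grown in DMEM with 10% FBS. The 2 libraries compared received control solution, and the other 2, used here as a second reading, were given the cytokine TNF (tumour necrosis factor alpha), 10 ng/ml for 4 h per the series' design text, while the treatment protocol writes the same figure with another unit. Each library mixes the cells of 3 separate treatments, so there is 1 library per group, no spread between replicates and no test anywhere below. The labels do not say how the Mll1 allele was made, from how many embryos or lines the cells came, their sex, their strain or their passage. Anything else that differs between the 2 cell populations cannot be told apart from the genotype, and in bulk RNA fewer cells of a kind cannot be told apart from less RNA per cell.

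Mll1, now named Kmt2a, encodes a histone methyltransferase that works in a large complex with Wdr5, Rbbp5, Ash2l, Dpy30 and menin and places methyl groups on lysine 4 of histone H3 at active promoters. It is best known for keeping Hox genes on once they have been turned on in the embryo. Hox genes stand in 4 clusters, Hoxa to Hoxd, and the combination that a fibroblast expresses records the body position from which it came. Fibroblasts make and remodel the extracellular matrix of connective tissue, above all collagens, proteoglycans and fibronectin, and signal to neighbouring cells.

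A set of 4 values is given here in the order wild type, wild type with TNF, Mll1-/-, Mll1-/- with TNF. Differences are log2((RPKM + 0.5) of Mll1-/-) minus the same of wild type in the untreated pair unless the TNF pair is named, so they understate the change of low genes. A gene was counted as higher or lower at a log2 difference of 1 or more in size, which is a rule of size and not a test. A fold in the text is a ratio of read shares with a 95% exact binomial (Clopper-Pearson) interval, called the counting interval, which covers counting error only. Where a library held 0 reads, the fold was taken against 3 reads in that library and is written as a lower bound.

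The targeted gene was measured at nearly the same level under both labels. Kmt2a stood at 1.85, 2.11, 2.02 and 1.66 RPKM, from 842, 971, 666 and 526 reads, a log2 difference of 0.10 without TNF and -0.28 with it. The ratio of the untreated pair was 1.09-fold (counting interval 0.985 to 1.21), which spans no change. A value over the whole transcript cannot check an allele that loses part of the gene, and the deleted part is not named in the labels, so the libraries are called here by their labels. The other enzymes of its family lay within the size rule as well. Kmt2b, a close relative, had 3.01, 2.83, 3.54 and 3.35 RPKM, Kmt2d 2.67, 2.52, 4.4 and 3.24 RPKM, Kmt2e 6.38, 7.03, 10.8 and 8.53 RPKM and Setd1a 7.24, 7.35, 9.61 and 8.57 RPKM. Among 22 measured genes of the Mll1 family and its partner subunits, 0 were higher and 0 lower, with a median of 0.17 against -0.05 over all members. The extremes were Dpy30 at -0.78, with a short transcript, and Kmt2e at 0.72.

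Library totals were recovered from the RPKM values and are not given by the labels. They lay between 19306506 and 27977248 reads in the 4 libraries, with 27728647 in untreated wild type and 20081869 in untreated Mll1-/-. Recovered reads summed over all transcript entries came to between 1.65 and 1.75 times these totals. Fibroblast identity was checked with 10 markers, of which 9 were in the table and all 9 were members. Their summed level was 2659.8 RPKM in wild type and 2979 in Mll1-/-. Vim, an intermediate filament protein of mesenchymal cells, was 2418, 2224, 2177 and 2097 RPKM. It made up most of both sums, so they say little of the other markers. Pdgfra and Col3a1 stayed under 1 RPKM in both wild-type libraries. Both, with Col1a1, Col1a2 and Fn1, were higher past the size rule in Mll1-/-, while Pdgfrb, Prrx1 and Twist1 were within it. The measured markers of epithelium (5), endothelium (5), macrophages and blood cells (2 of 6 in the table) and Schwann cells (4) stayed under 1 RPKM in every library. Their summed levels in the order above were 1.03, 1.04, 0.868 and 0.736 RPKM for epithelium and 0.817, 0.909, 0.21 and 0.178 RPKM for endothelium. Genes of the longer lists for these tissues did reach higher levels. Cd14 of the macrophage and blood list had 23.2, 25.6, 9.28 and 11.9 RPKM, and Krt19 and Msln of the epithelial list are given below. The 4 measured neuronal markers summed to 9.26, 8.69, 42.4 and 43.9 RPKM, and the 4 smooth muscle markers to 100.4, 90.02, 179.6 and 191.9 RPKM. Pecam1, Sox10 and Snap25 had 0 reads in untreated wild type, and Krt18 0 reads in untreated Mll1-/-. The neuronal sum rests on Tubb3 and Map2, while Snap25 and Elavl3 stayed under 0.04 RPKM throughout. The smooth muscle sum rests on Acta2 (98, 87.4, 177 and 189 RPKM), which was within the size rule in the untreated pair. Tagln went slightly the other way (0.728, 1.1, 0.534 and 0.588 RPKM), and Cnn1 had 2 reads or fewer in every library.

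Of the 11004 genes, 813 (7.39%) were higher and 774 (7.03%) were lower in the library labelled Mll1-/-. Every count of higher and lower list members below is to be read beside these 2 shares. List members passed the same filter, so a gene near 0 under 1 label is a member only through the label where it is high. A log2 difference of 2 or more was reached by 287 higher and 144 lower genes, and one of 4 or more by 35 and 22. The middle 50% of genes lay between -0.42 and 0.325. The pair with TNF shares no library with the untreated pair, although both draw on the same 2 cell populations. In it 6.99% of the same genes were higher and 4.51% lower. Of the 813 higher genes, 670 (82.4%) passed the size rule in the TNF pair too, as did 429 (55.4%) of the 774 lower genes. The sign alone was shared by 803 of the higher and 763 of the lower genes. If the libraries were scaled to equal sums without the 20 most abundant genes, all differences moved up by 0.24, and 1146 genes were higher and 499 lower. The higher genes then made up 69.7% of those past the size rule, in place of 51.2%.

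**Figure D1:**
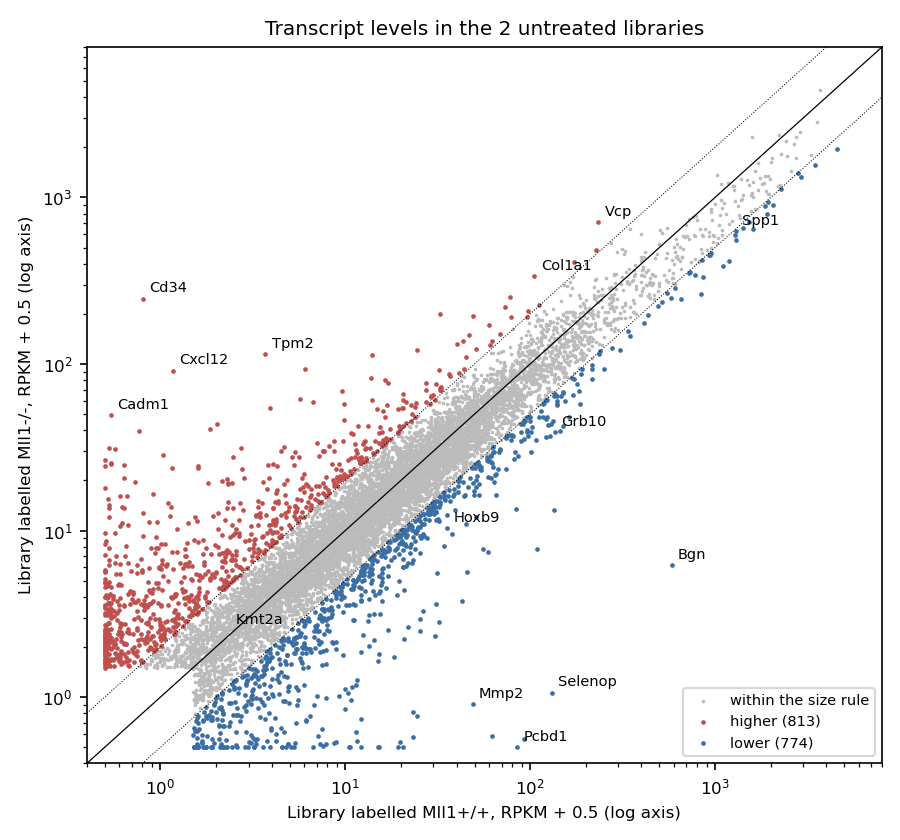
Level of each of 11004 genes in the untreated library labelled Mll1+/+ (horizontal) and in the untreated library labelled Mll1-/- (vertical), as RPKM + 0.5 on log axes, 1 library each. Red points are the 813 higher and blue points the 774 lower genes, the dotted lines mark the size rule, and Cd34 and Bgn lie far from the diagonal while Kmt2a lies near it.

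The lower genes were short. Their median transcript length was 1774 bases, against 3203 for higher genes and 2804 for the rest. Lengths were recovered from the RPKM values and not read from an annotation. Of the entries with a GENCODE length, 79.5% had a recovered length within 10% of it, so some lengths are wrong. Genes were divided into 10 classes by transcript length. In the class with the shortest transcripts the median difference was -0.58 and 21.7% were lower. In the class with the longest transcripts it was 0.27 and 3.09% were lower. In the TNF pair the same medians were -0.18 and 0.02, so the trend with length was mostly a feature of the untreated pair. With this trend removed, 815 genes (7.41%) were higher and 584 (5.31%) lower, and 720 of the higher and 518 of the lower genes were counted again. For several groups of short genes, values with the trend removed are given below, and the source of the trend was not tested.

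**Figure D2:**
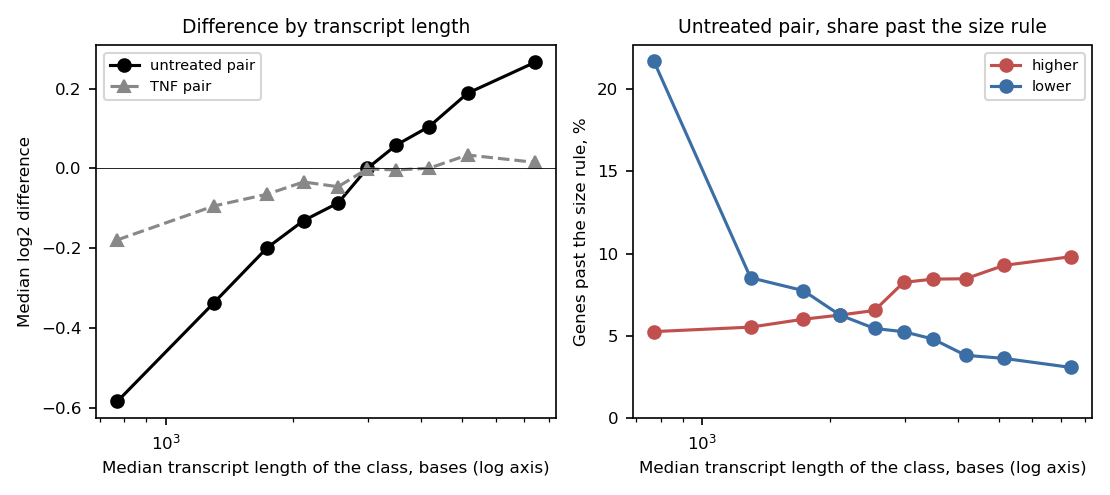
Left, median log2 difference (Mll1-/- minus wild type) in 10 equal classes of the genes ordered by transcript length, against the median length in bases on a log axis, for the untreated pair (circles) and the TNF pair (triangles). Right, percent of each class that was higher or lower in the untreated pair; the share of lower genes falls from 21.7% in the shortest class to 3.09% in the longest.

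Cd34, a sialomucin on the surface of stem, endothelial and some mesenchymal cells, had the largest log2 difference of the named genes. It stood at 0.307, 0.261, 246 and 249 RPKM, or 801-fold (counting interval 524 to 1295) higher in untreated Mll1-/- cells. Cadm1, an immunoglobulin-type adhesion molecule, followed with 0.0414, 0.0493, 48.9 and 40 RPKM. Its ratio of read shares, 1181-fold against 5 wild-type reads, was larger than that of Cd34. Cxcl12, the chemokine that attracts and retains Cxcr4-bearing cells, had 0.672, 0.438, 90.8 and 81.1 RPKM. Both libraries of each label lay close together for these 3 genes, and the labels did not overlap. Pcbd1, a small enzyme that recycles pterin cofactors, led the genes that were lower. Its levels were 84.6, 80.8, 0 and 0 RPKM, from 1925, 1856, 0 and 0 reads, which makes it at least 465-fold lower. Sprr1a, a precursor of the cornified envelope that is also made in stressed cells, had 92.6, 80, 0.0617 and 0 RPKM and a single read in the untreated Mll1-/- library. The promoter windows of the highest and lowest genes for which RefSeq gave 1 window (GRCm38.p6, 250 bases before to 50 after the start) are printed because promoter composition is compared further on. Capitals mark CG dinucleotides, the sites of DNA methylation, and each sequence runs 5′ to 3′ on the gene's strand. The windows are Cd34 (chr1:194938571-194938870, plus strand), Cxcl12 (chr6:117168285-117168584, plus strand), Pcbd1 (chr10:61089081-61089380, plus strand) and Sprr1a (chr3:92485832-92486131, minus strand).
Cd34: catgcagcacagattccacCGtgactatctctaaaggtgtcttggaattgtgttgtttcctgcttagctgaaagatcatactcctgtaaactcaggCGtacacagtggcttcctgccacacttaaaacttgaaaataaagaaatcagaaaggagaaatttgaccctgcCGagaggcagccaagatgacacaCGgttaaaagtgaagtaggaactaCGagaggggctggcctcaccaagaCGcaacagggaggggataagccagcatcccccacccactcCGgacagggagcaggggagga
Cxcl12: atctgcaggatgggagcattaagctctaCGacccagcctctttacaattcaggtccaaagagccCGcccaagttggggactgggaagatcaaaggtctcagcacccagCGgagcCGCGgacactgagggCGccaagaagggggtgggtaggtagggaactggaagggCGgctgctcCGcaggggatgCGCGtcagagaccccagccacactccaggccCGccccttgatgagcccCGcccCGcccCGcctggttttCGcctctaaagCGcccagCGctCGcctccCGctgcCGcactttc
Pcbd1: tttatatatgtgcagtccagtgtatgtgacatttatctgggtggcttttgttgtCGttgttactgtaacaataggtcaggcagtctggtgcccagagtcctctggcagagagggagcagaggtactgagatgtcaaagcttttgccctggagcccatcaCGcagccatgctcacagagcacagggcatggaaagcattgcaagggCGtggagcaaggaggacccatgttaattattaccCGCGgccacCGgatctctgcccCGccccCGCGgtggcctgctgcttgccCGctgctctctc
Sprr1a: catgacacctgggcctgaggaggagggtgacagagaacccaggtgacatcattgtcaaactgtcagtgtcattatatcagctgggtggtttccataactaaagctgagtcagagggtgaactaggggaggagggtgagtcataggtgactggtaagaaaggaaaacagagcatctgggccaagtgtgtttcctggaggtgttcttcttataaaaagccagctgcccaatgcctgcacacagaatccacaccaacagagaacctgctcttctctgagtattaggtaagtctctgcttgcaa
The Cd34 window holds 7 CG, Cxcl12 20, Pcbd1 10 and Sprr1a 0, against a median of 22 in genes within the size rule. TATAAA, searched on both strands, occurs in the windows of Pcbd1 and Sprr1a and in neither of the others. In Pcbd1 it lies on the opposite strand, in the first bases of the window. The windows of Bgn, also lower, and Ramp3, also higher, hold none. Its shares over all higher and lower genes are given further on.

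Other genes near the top were also almost silent in wild type. Ramp3, which pairs with the calcitonin receptor-like receptor, had 0.0295, 0.0293, 30.6 and 34.4 RPKM. Olfm1, a secreted olfactomedin, had 0.0671, 0.0532, 30.4 and 27.3 RPKM, and F11r, the junctional adhesion molecule A, 0, 0.0288, 26 and 27.8 RPKM. The F11r difference was at least 597-fold. Small heat shock protein Hspb1 had no read in either wild-type library and 0, 0, 24.1 and 31.7 RPKM in all, at least 203-fold higher without TNF. Mlkl, the executor of necroptosis, was likewise at 0 in both wild-type libraries, with 0, 0, 17.6 and 20.2 RPKM and a difference of at least 277-fold. For all 5 the level was near 0 in both wild-type libraries and above 15 RPKM in both Mll1-/- libraries. Creatine kinase B (Ckb) had 0.268, 0.169, 39.2 and 41.3 RPKM and the LIM protein Fhl1 0.138, 0.106, 20.2 and 19.3 RPKM. Ifi202b, an interferon-inducible gene of a family with near-identical copies and so of uncertain count, had 0.0402, 0.0398, 24.7 and 24.8 RPKM.

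Several genes that were abundant in wild type were nearly gone from the library labelled Mll1-/-. Selenop, which carries selenium in plasma, had 130.3, 114, 0.564 and 0.408 RPKM, a 231-fold (counting interval 154 to 365) lower level without TNF. Thrombomodulin (Thbd), an anticoagulant receptor on cell surfaces, had 19.9, 22.2, 0 and 0 RPKM, and the sphingosine 1-phosphate receptor S1pr3 14.7, 14.1, 0 and 0 RPKM. Both had 0 reads in each Mll1-/- library, for at least 496-fold and at least 439.8-fold lower levels. Cathepsin H (Ctsh) was 11.6, 11.2, 0 and 0 RPKM, the phosphodiesterase Smpdl3b 18.7, 20.9, 0 and 0 RPKM, and lactate dehydrogenase B (Ldhb) 19.4, 18, 0.0376 and 0 RPKM. Cldn15, a claudin of tight junctions, had 23.8, 17.6, 0.27 and 0.0842 RPKM, and Arhgdib, a GDP dissociation inhibitor, 22.7, 20, 0.317 and 0.518 RPKM. For each of the 30 genes at the extremes, the TNF library of a label lay on the same side as the untreated one.

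**Figure D3:**
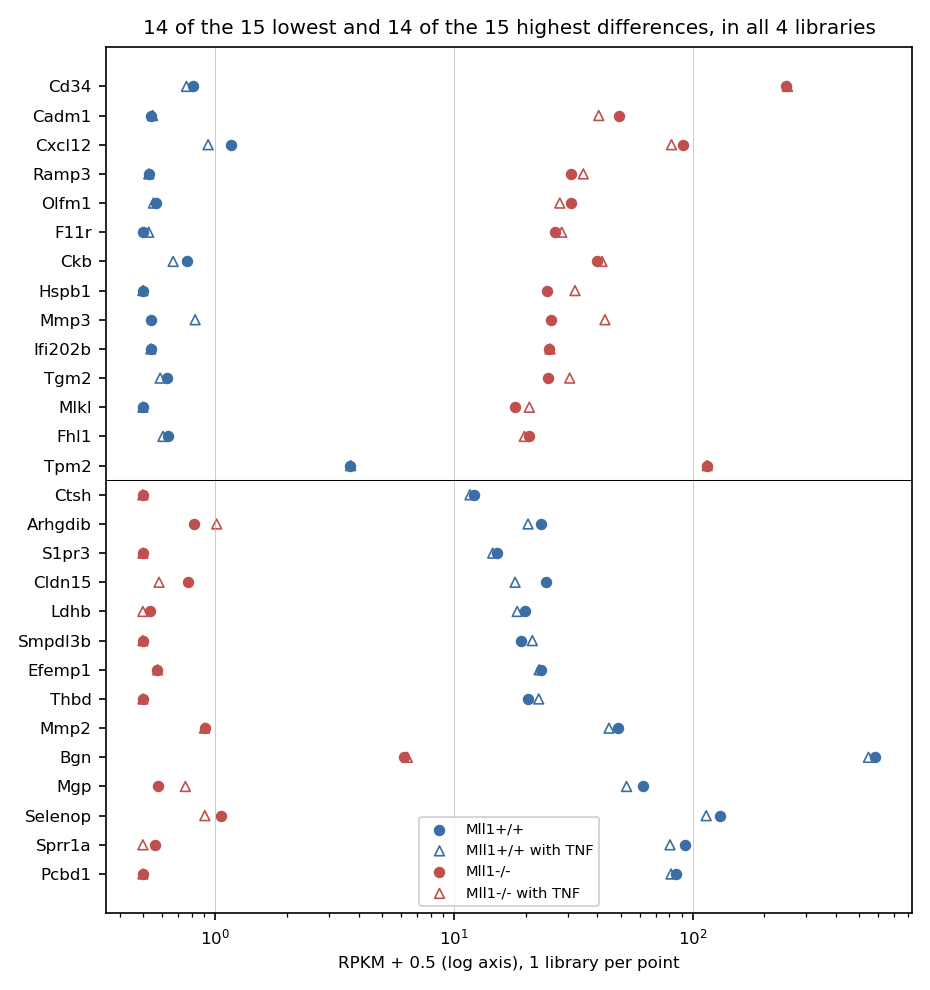
RPKM + 0.5 on a log axis for 14 of the 15 highest and 14 of the 15 lowest differences among genes with 3 RPKM or more in the higher untreated library, 1 point per library (circles untreated, triangles with TNF, blue wild type, red Mll1-/-). In every row the 2 blue and the 2 red points lie apart, with Cd34 at 0.307 and 246 RPKM at the top and Pcbd1 at 84.6 and 0 RPKM at the bottom.

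A number of genes were read almost only under 1 label. Taking 3 RPKM or more in the untreated library of one label against 3 reads or fewer in both libraries of the other, a rule chosen after the values were seen, as were the genes named from it, 36 genes were found for the Mll1-/- libraries and 30 for the wild-type libraries. The first set includes decorin (Dcn), a collagen-binding proteoglycan, with 0, 0, 9.16 and 15.2 RPKM, and Noggin (Nog), a secreted BMP antagonist, with 0.0375, 0.0744, 3.16 and 2.1 RPKM. It also includes Pmaip1 (Noxa), a BH3-only death protein, at 0.0136, 0.0269, 3.53 and 3.55 RPKM, and the neuronal protein Map2 described below. The second set includes Tgfbi, an adhesive matrix protein, with 10.1, 8.34, 0 and 0.0387 RPKM, and Pdpn (podoplanin), a mucin-type glycoprotein of stromal cells and lymphatic vessels, with 8.15, 11, 0.0281 and 0 RPKM. Reads from each stayed at 2 or fewer per Mll1-/- library. Pax2, a paired-box factor of the developing kidney, had 4.55, 3.89, 0 and 0 RPKM, and Ebf3, an EBF-family factor, 4.25, 3.4, 0 and 0 RPKM. With 1 RPKM as the lower limit the sets held 112 and 82 genes.

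The Hox genes differed cluster by cluster. All 5 Hoxc members were lower, with a median of -3.06, and both Hoxd members were higher, while 2 further genes of each cluster in the table lay under 1 RPKM in both untreated libraries. Hoxd8 and Hoxd9 reached 1 RPKM only in the Mll1-/- library and Hoxc8, Hoxc9, Hoxc10 and Hoxc5 only in the wild-type one, so their direction is set in part by that filter. Hoxc8 had 11.1, 6.82, 0.042 and 0.0219 RPKM, Hoxc9 10.9, 8.96, 0.116 and 0.271 RPKM and Hoxc6 14.6, 11.4, 1.31 and 1.5 RPKM, while Hoxc10 had 2.59, 2.44, 0.0896 and 0 RPKM and Hoxc5 1.19, 1.13, 0.0365 and 0.133 RPKM. These 5 stand next to each other among the measured genes. Hoxd8 went the other way with 0.0253, 0, 13.1 and 11.9 RPKM, or 516-fold (counting interval 92.1 to 20451) higher against a single wild-type read, and Hoxd9 had 0.184, 0.133, 3.1 and 2.69 RPKM. In the Hoxb cluster 3 of 7 genes were lower and 0 higher (median -0.95). Hoxb9, the most abundant of them, had 35.2, 31.8, 9.81 and 8.52 RPKM, Hoxb6 7.33, 6.36, 0.482 and 0.617 RPKM and Hoxb8 3.89, 2.74, 1.51 and 1.33 RPKM, and Hoxb4 was at 0.59. In the Hoxa cluster Hoxa9 (1.79, 1.38, 0 and 0 RPKM), Hoxa10 (1.26, 1.18, 0 and 0 RPKM) and Hoxa7 (3.95, 3.15, 1.07 and 0.743 RPKM) were lower and Hoxa4 (0.425, 0.351, 1.4 and 1.25 RPKM) was just past the size rule in the other direction. The lower Hox genes of the Hoxa, Hoxb and Hoxc clusters carry numbers from 5 to 10, and Hoxa4 and Hoxb4 lay above 0. Hoxd8 and Hoxd9, with numbers in the same range, were higher, and the other Hoxa and Hoxb members were within the size rule. Hoxa4 reached 1 RPKM only in the untreated Mll1-/- library and Hoxa9, Hoxa10 and Hoxb6 only in the wild-type one, so the filter bears on them too. Of the Hox cofactors, 1 of 7 passed the size rule, Meis1 with 0.684, 0.83, 1.89 and 1.73 RPKM.

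Other transcription factors of embryonic mesenchyme were split evenly. Of 33 measured members of this list, 11 were higher and 11 lower, against 7.39% and 7.03% of all genes. Lower were Gata6, a zinc finger factor of endoderm and heart (2.7, 2.84, 0 and 0 RPKM), and Pax9, a factor of the pharyngeal pouches and the sclerotome (2.37, 2.46, 0 and 0 RPKM). The forkhead genes Foxc1 (10.5, 7.44, 2.41 and 2.26 RPKM), Foxc2 (8.01, 6.99, 1.64 and 1.85 RPKM) and Foxd1 (12.9, 9.57, 3.38 and 3.16 RPKM) were lower too. Higher were 2 other forkhead genes, Foxf1 (0.441, 0.37, 8.63 and 9.41 RPKM) and Foxf2 (1.65, 1.54, 8.97 and 7.77 RPKM), which mark gut and lung mesenchyme. The 2 groups of forkhead genes were thus opposite in direction, in both pairs of libraries. Scleraxis (Scx), the tendon factor, stood at 1.05, 0.755, 11.6 and 11.7 RPKM, Osr1 at 0.48, 0.265, 5.53 and 4.91 RPKM and Msx2 at 0.0334, 0, 1.66 and 2.23 RPKM. With TNF, 10 of the 11 higher and 9 of the 11 lower passed the size rule again.

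Surface and lineage genes of mesenchyme differed in both directions. Of 17 measured, 6 were higher and 2 lower, with a median of 0.58. Besides Cd34 they were Alcam (0.159, 0.165, 15.6 and 15.9 RPKM), nestin (Nes, 5.18, 5.38, 61.4 and 48 RPKM), Vcam1 (1.31, 21.3, 18.8 and 58.3 RPKM), the platelet-derived growth factor receptor Pdgfra (0.22, 0.267, 3.2 and 3.86 RPKM) and the hyaluronan receptor Cd44 (50.6, 60.7, 123 and 132 RPKM). Vcam1 is itself TNF-responsive, and its difference was 3.42 without and 1.43 with TNF. Cspg4, the NG2 proteoglycan of pericytes, was lower with 5.35, 5.8, 1.33 and 1.36 RPKM. S100a4 had 2934, 2692, 1332 and 2385 RPKM, a difference of -1.14 that came to -0.51 with the length trend removed and to -0.17 in the TNF pair. Among contractile genes 4 of 12 were higher and 0 lower. Tpm2, a tropomyosin of muscle and fibroblasts, had 3.2, 3.2, 114 and 115 RPKM, Actg2 1.51, 1.25, 5.16 and 5.37 RPKM and Des 1.28, 0.975, 3.78 and 2.99 RPKM, while Tpm1 had 347, 439, 645 and 701 RPKM, a difference of 0.89.

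Genes named for other tissues were a small part of the table and differed gene by gene. Of the neuronal list only 6 of 40 symbols were members, and 4 of these were higher. A further 24 genes of the list lay under 1 RPKM in both untreated libraries. The microtubule protein Map2 had 0.00652, 0, 8.12 and 6.39 RPKM, the sodium channel Scn3a 0.143, 0.101, 6.5 and 4.61 RPKM and Tubb3 9.23, 8.64, 34.2 and 37.4 RPKM. In the untreated pair Map2 and Scn3a reached 1 RPKM only in Mll1-/-, so their direction is set in part by the filter. Among 6 epithelial genes, 3 were lower, led by the p53 target Perp (11.6, 10.2, 0.236 and 0.245 RPKM) and mesothelin (Msln, 50.4, 46, 17.6 and 23 RPKM), and 2 were higher, among them plakophilin 2 (Pkp2, 1.42, 1.53, 11.7 and 12.1 RPKM). Keratin 19 (Krt19) had 52.6, 41.5, 24.2 and 21.2 RPKM. Of the adipocyte list, lipoprotein lipase (Lpl) had 0.0267, 0.0971, 11.6 and 8.08 RPKM and Cebpd 1.66, 4.1, 6.08 and 11.3 RPKM, whereas Pparg, the adipocyte master regulator, was at -0.67 with 17.8, 14.6, 11 and 8.34 RPKM. Runx3, a Runt factor, had 0.0278, 0.0735, 3.19 and 2.65 RPKM, and its relative Runx2, the bone factor, was alike under both labels at 4.54, 3.5, 4.58 and 3.85 RPKM.

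Several fibrillar collagen genes were higher, and Col6a1 and Col6a2 were lower. Of 6 fibrillar collagen genes, 4 were higher and 0 lower, with a median of 1.89. Collagen I, the main collagen of connective tissue, stood at 105, 92.5, 337 and 295 RPKM for Col1a1 and 32.2, 25.9, 198 and 170.1 RPKM for Col1a2. Col3a1, of reticular fibres, had 0.531, 0.296, 28.1 and 23.5 RPKM and Col27a1 0.142, 0.159, 2.26 and 1.93 RPKM. Each of these 4 was higher in both Mll1-/- libraries than in either wild-type one. In the untreated pair Col3a1 and Col27a1 reached 1 RPKM only in Mll1-/-, so their direction is set in part by that filter. A further 5 fibrillar collagen genes in the table lay under 1 RPKM in both untreated libraries. Col5a2 was alike at 30.2, 28.5, 28.3 and 25.7 RPKM. The list's summed level was 179.9 RPKM in wild type and 610.01 RPKM in Mll1-/-. Of the other collagens Col6a1 had 83.4, 81.6, 13 and 14 RPKM and Col6a2 55.1, 49.3, 7.26 and 7.15 RPKM, and Col18a1, the source of endostatin, had 23.7, 24.7, 57.8 and 61.3 RPKM.

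Proteoglycans and elastic fibre genes held some of the lowest differences. Biglycan (Bgn), a small leucine-rich proteoglycan that binds collagen, stood at 582, 545, 5.71 and 5.9 RPKM, 102-fold (counting interval 90.5 to 115) lower without TNF. In its family 4 of 7 were lower, with Podnl1 at 9.19, 8.08, 1.29 and 1.2 RPKM, osteoglycin (Ogn) at 25, 19.3, 8.47 and 7.32 RPKM and osteomodulin (Omd) at 30.4, 29.2, 12.4 and 15.7 RPKM. Decorin, the closest relative of biglycan, was one of 2 higher members, beside Prelp (0.0801, 0.109, 1.23 and 1.25 RPKM). The summed level of the family was 659 RPKM in wild type and 59 RPKM in Mll1-/-, and biglycan alone made up most of that difference. Matrix Gla protein (Mgp), an inhibitor of calcification, had 61.6, 52.5, 0.0811 and 0.253 RPKM, the fibulins Efemp1 22.6, 22.3, 0.0734 and 0.0763 RPKM and Fbln5 7.35, 6.13, 1.08 and 1.13 RPKM. The other 11 of 14 elastic fibre genes were within the size rule, with lysyl oxidase (Lox) at 170.2, 168, 330.5 and 326 RPKM.

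Genes of cell contact and provisional matrix leaned higher. Fibronectin (Fn1) had 59.1, 63.3, 171 and 158 RPKM, tenascin C (Tnc) 5.15, 6.77, 27.2 and 25.3 RPKM, Slit2 1.55, 1.94, 9.77 and 8.97 RPKM and Ccn3 0.137, 0.347, 1.62 and 2.32 RPKM, among 5 higher and 3 lower of 19 adhesive glycoproteins. Osteopontin (Spp1) was lower with 1297, 1307, 626 and 783 RPKM. Of 18 cadherins and adhesion molecules, 10 were higher and 1 was lower, a median of 1.19. A further 15 genes of this list in the table lay under 1 RPKM in both untreated libraries. The protocadherin Pcdh18 had 3.3, 3.7, 24.2 and 19.4 RPKM and Nrcam 0.098, 0.0631, 3.05 and 2.17 RPKM, while the lower one, L1cam, had 4.83, 4.89, 0.0283 and 0.0098 RPKM. Of 16 genes of large proteoglycans and hyaluronan 6 were higher and 2 lower, with the synthase Has2 at 0.728, 0.797, 6.95 and 8.73 RPKM and the hyaluronan-binding Tnfaip6 at 0.383, 0.313, 3.79 and 6.63 RPKM. In the untreated pair Ccn3, Nrcam, Has2 and Tnfaip6 reached 1 RPKM only in Mll1-/- and L1cam only in wild type. Their direction is thus set in part by the filter. Integrin subunits Itga5 (20.8, 22.2, 58.7 and 67.6 RPKM), which pairs to bind fibronectin, Itga3 (22.2, 19.4, 56.1 and 51.7 RPKM) and Itgb3 (1.25, 1.65, 4.98 and 6.85 RPKM) were higher and Itgb7 (58.7, 53.9, 6.91 and 7.36 RPKM) was lower. Laminins Lamc1 (14.7, 17.4, 38 and 35.8 RPKM) and Lama5 (5.2, 5.44, 17.2 and 17.3 RPKM) were higher, and collagen IV was within the size rule with Col4a1 at -0.64.

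Proteases that cut the matrix differed in both directions. Of 28 proteases and inhibitors 11 were higher and 2 lower. The stromelysins Mmp3 (0.0388, 0.327, 25 and 42.5 RPKM) and Mmp10 (0.231, 1.43, 19.2 and 36.4 RPKM) and collagenase Mmp13 (0.135, 1.14, 3.09 and 8.48 RPKM) were higher in Mll1-/-, and all 3 were higher still with TNF. Gelatinase A (Mmp2) was lower with 48.3, 44.2, 0.406 and 0.405 RPKM, 119-fold (counting interval 80.6 to 184) without TNF, and Mmp15 had 1.19, 0.847, 0.0458 and 0.0715 RPKM. The serine protease Htra1 had 1.09, 0.906, 24 and 24.6 RPKM and Serpinf1, an antiangiogenic serpin, 2.26, 1.93, 23 and 24.4 RPKM. Enzymes that finish collagen differed both ways, 4 higher and 4 lower of 25. Transglutaminase 2 (Tgm2) had 0.132, 0.0906, 24.3 and 30.1 RPKM, the prolyl hydroxylase subunit P4ha3 0.107, 0.0454, 10.2 and 10.5 RPKM and the procollagen protease Adamts2 0.0482, 0.0382, 2.85 and 2.77 RPKM, while Loxl3 (19, 17.3, 7.85 and 9.89 RPKM) and Plod3 (52.7, 49.8, 23 and 23.7 RPKM) were lower.

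**Figure D4:**
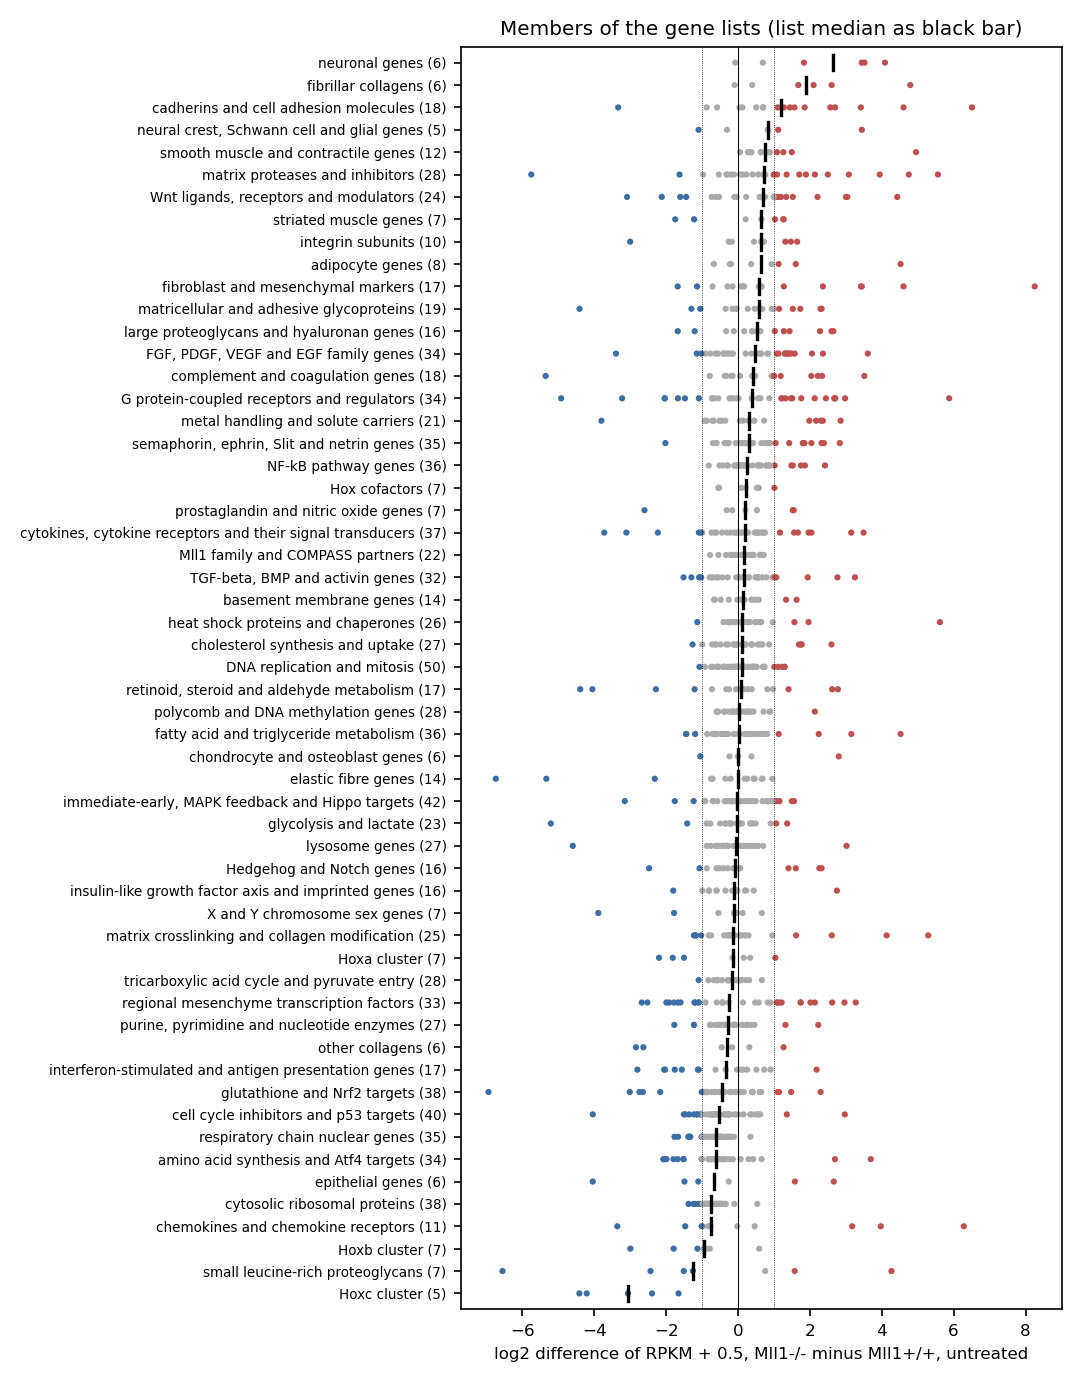
log2 difference in the untreated pair for each measured member of the gene lists with 5 members or more, with the number of members in brackets and the list median as a black bar; red points are higher, blue lower and grey within the size rule, which dotted lines mark. Neuronal genes (median 2.64) and fibrillar collagens (1.89) lie at the top and Hoxc genes (-3.06) at the bottom.

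Central carbon metabolism was largely alike. Of 23 glycolysis genes 2 were higher and 2 lower (median -0.03), and of 28 citric acid cycle genes 0 and 1. The lower genes include Ldhb, which favours the conversion of lactate to pyruvate. Pdk1, which restrains pyruvate dehydrogenase, was also lower with 6.46, 5.96, 2.11 and 2.03 RPKM, and Bpgm had 9.84, 7.93, 26.2 and 27.5 RPKM. Nuclear genes of the respiratory chain were lower in 9 of 35 cases, such as Uqcrq (162, 161, 47.3 and 90.2 RPKM) and Ndufa1 (73.4, 71.1, 22.8 and 40.7 RPKM). Their transcripts are short, with a median of 754 bases. The list's median of -0.61 came to -0.24 with the length trend removed, when 2 were lower, and to -0.17 in the TNF pair, when none was.

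Genes of amino acid synthesis and the Atf4 stress response leaned lower. Atf4 is the transcription factor that cells raise when amino acids run short or the endoplasmic reticulum is stressed. Of 34 genes 8 were lower and 2 higher, with medians of -0.62 without TNF, -0.52 with it and -0.67 with the length trend removed. The pseudokinase Trib3 had 50.7, 46.6, 11.6 and 12.8 RPKM, the glutathione-degrading Chac1 64.6, 54.1, 15.9 and 20.7 RPKM and Atf5 24.8, 20, 6.79 and 7.59 RPKM. Cystathionine beta-synthase (Cbs) had 3.86, 3.13, 0.547 and 0.46 RPKM and the proline enzyme Pycr1 4, 3.59, 0.906 and 0.747 RPKM. The 2 that were higher were Aldh1l2, a mitochondrial folate enzyme (0.371, 0.45, 10.8 and 10.3 RPKM), and the lipoprotein receptor Vldlr (0.521, 0.494, 6.13 and 5.42 RPKM).

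Of 36 fatty acid genes 4 were higher and 3 lower, near the 7.39% and 7.03% of all genes. The desaturase Scd1 had 6.17, 5.48, 58.9 and 46.3 RPKM, the hormone-sensitive lipase Lipe 0.311, 0.322, 3.35 and 3.02 RPKM and Dgat2 1.04, 0.778, 2.88 and 2.49 RPKM, while Acadm (43.5, 39.7, 15.7 and 15.7 RPKM), Acss2 (4.35, 4.31, 1.28 and 0.987 RPKM) and Fads2 (146, 129, 63.7 and 58.6 RPKM) were lower. In the cholesterol list the efflux pumps Abca1 (0.657, 0.582, 3.46 and 3.14 RPKM) and Abcg1 (0.031, 0.0553, 2.72 and 3.58 RPKM) and the synthesis enzyme Cyp51 (16.3, 16, 55.9 and 51.4 RPKM) were higher. The list of 27 as a whole had a median of 0.11, with 4 higher and 1 lower.

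Redox and detoxification genes were split. Of 38 members 4 were higher and 6 lower, and 5 were lower with the length trend removed, when the median of -0.43 came to -0.13. Nqo1, a quinone reductase, had 24, 23.4, 120.1 and 132 RPKM and Prdx6 60.2, 58.6, 129.6 and 140.1 RPKM. Glutathione transferases Gsta1 (25.9, 24.3, 2.78 and 2.11 RPKM) and Gsta2 (16.5, 15.4, 2.04 and 1.45 RPKM), near-identical copies whose reads are hard to separate, and Gstt3 (3.47, 4.14, 0.133 and 0.221 RPKM) were lower, as was Mgst2 (4.38, 5.06, 0.588 and 0.175 RPKM). Genes of retinoid handling differed in both directions. The vitamin A receptor Stra6 had 8.38, 7.37, 0.0358 and 0 RPKM, and the retinaldehyde dehydrogenase family members Aldh1a1 and Aldh1a7, close copies, had 1.93, 1.72, 0 and 0.051 RPKM and 9.98, 7.84, 0 and 0.126 RPKM. Rdh10, which makes retinaldehyde from retinol, was higher with 7.4, 7.99, 20.4 and 22.4 RPKM, as was Adh7 with 1.56, 1.43, 12.2 and 11.4 RPKM. The water channel Aqp1 had 108, 78.5, 7.29 and 6.53 RPKM, and the iron exporter Slc40a1 0.0854, 0.148, 2.4 and 2.19 RPKM. Cathepsin Z (Ctsz) had 13.4, 13.7, 112 and 134 RPKM and was the only higher gene of 27 lysosomal genes, with Ctsh the only lower one. Adenosine kinase (Adk) had 100.4, 92.4, 29 and 28.8 RPKM and adenylate deaminase Ampd3 4.79, 6.11, 24.4 and 27.3 RPKM.

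Secreted signals and their receptors included genes with large differences. In the Wnt list 10 of 24 were higher and 4 lower, against 7.39% and 7.03% of all genes. Among ligands Wnt4 (5.67, 2.95, 0.226 and 0.282 RPKM) and Wnt9a (1.51, 1.64, 0.24 and 0.265 RPKM) were lower. The R-spondins, which amplify Wnt signals, parted, with Rspo3 at 0.135, 0.267, 13.2 and 20.9 RPKM and Rspo2 at 1.03, 0.856, 0 and 0 RPKM. The inhibitor Sfrp2 had 1.68, 1.54, 0 and 0.0259 RPKM, the receptors Ror2 0.0905, 0.134, 4.23 and 3.94 RPKM and Fzd6 1.39, 1.24, 4.95 and 3.7 RPKM, and the nuclear factor Tcf7 0.193, 0.192, 5.21 and 4.17 RPKM. In the untreated pair Rspo3, Ror2 and Tcf7 passed the filter only through Mll1-/-, and Rspo2 and Sfrp2 only through wild type. Their direction is thus set in part by that filter. In the list of fibroblast, platelet-derived, vascular and epidermal growth factors and receptors 12 of 34 were higher and 3 lower. Pdgfb had 0.0732, 0.133, 6.5 and 8.5 RPKM, amphiregulin (Areg) 1.47, 1.64, 7.72 and 14 RPKM and Kit ligand (Kitl) 27, 25.5, 76.4 and 55 RPKM, while angiopoietin 1 (Angpt1), which steadies vessels, had 17.7, 15.4, 1.23 and 1.02 RPKM.

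Of 16 Hedgehog and Notch genes 4 were higher and 2 lower. The Notch ligand Jag1 had 0.0136, 0.00675, 2.08 and 2.09 RPKM, Notch2 4.27, 4.79, 14 and 12.2 RPKM and the feedback gene Nrarp 0, 0.0138, 1.9 and 2.1 RPKM, while Notch3 had 3.67, 2.82, 0.251 and 0.228 RPKM. Bmp6 stood at 0.0748, 0.089, 4.98 and 5.57 RPKM, and with Noggin and Fstl3 (0.0554, 0, 1.63 and 1.94 RPKM), a binder of activin, it belonged to the 5 higher of 32 genes of the TGF-beta, BMP and activin list, of which 4 were lower without TNF and 0 with it. Id1, a target of BMP signals, had 66.1, 52.5, 22.8 and 33 RPKM, or -1.52 without and -0.66 with TNF. Of the imprinted genes, the receptor Igf2r, which clears IGF2, had 3.98, 3.97, 29.7 and 26.4 RPKM, and Grb10, an adaptor that restrains insulin receptors, 136, 132, 38.5 and 34.2 RPKM. These 2 were the only ones past the size rule in a joint list of 16 imprinted genes and genes of the insulin-like growth factor axis.

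Of 37 genes of cytokines, their receptors and transducers 7 were higher and 5 lower. Il33, an alarmin of the nucleus, had 30, 27.5, 1.81 and 1.2 RPKM and its receptor Il1rl1 24.9, 53.3, 2.45 and 4.4 RPKM, both lower in Mll1-/-. The interleukin 1 receptor Il1r1 (1.79, 2.85, 19.8 and 17.7 RPKM) and the accessory chain Il1rap, which also serves Il1rl1 (3.76, 3.87, 17.1 and 16.6 RPKM) were higher, and the antagonist Il1rn (2.41, 2.96, 0.121 and 0.168 RPKM) was lower. Tnfrsf1b, the second TNF receptor, had 1.97, 2.46, 27.3 and 28.7 RPKM. Receptor and antagonist of interleukin 1 were thus opposite in direction. Chemokines differed as well, with Cx3cl1 (0.31, 0.739, 12.2 and 19.2 RPKM) and the Cxcl12-binding receptor Ackr3 (0.014, 0.0832, 4.15 and 4.14 RPKM) higher beside Cxcl12, and the neutrophil attractant Cxcl5 lower at 25, 338, 1.99 and 14.6 RPKM. Of 36 genes of the NF-kB pathway 6 were higher and 0 lower before any TNF was given, where 7.39% of all genes were higher. They include the inhibitor Nfkbie (1.1, 6.82, 8.08 and 18 RPKM), Tlr2 (0, 0.0373, 1.32 and 4.27 RPKM), Tnip3 (0.249, 3.21, 2.02 and 6.79 RPKM) and Traf1 (1.64, 10.7, 5.5 and 17.6 RPKM). In the TNF pair 3 of the 36 were higher, with a median of 0.10 in place of 0.24, and Tnip3 (0.97) and Traf1 (0.70) lay within the size rule there. Interferon-stimulated and antigen presentation genes were lower in 7 of 17, such as Samd9l (6.55, 14.3, 0.512 and 0.514 RPKM), Irgm1 (15.2, 16.7, 3.29 and 4.05 RPKM) and the peptide transporter Tap1 (2.92, 2.71, 0.658 and 0.597 RPKM), and the RNA sensor Ddx58 was higher with 0.861, 1.73, 5.7 and 10 RPKM. Complement C3 had 2.23, 5.83, 30.7 and 46.3 RPKM and C1s1 0.768, 1.72, 5.92 and 8.79 RPKM.

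Receptors coupled to G proteins differed in both directions. Of 34 receptors and regulators 13 were higher and 7 lower. The bradykinin receptor Bdkrb2 had 0.0859, 0.128, 3.26 and 4.1 RPKM and P2ry14 0.105, 0.125, 3.45 and 2.53 RPKM. Adora2b, an adenosine receptor, had 5.77, 7.19, 1.03 and 1.63 RPKM, Htr2a 1.09, 1.41, 0 and 0 RPKM and the G protein regulator Rgs16 4.37, 7.43, 0.0212 and 0.022 RPKM. Of 35 guidance genes 8 were higher and 1 was lower. Ephrin-A1 (Efna1) stood at 0.292, 0.169, 5.14 and 6.43 RPKM, Ephb2 at 0.0302, 0.0374, 2.28 and 1.78 RPKM and the semaphorin receptor Plxnd1 at 4.36, 5.24, 19.5 and 19.4 RPKM, while Epha7 had 3.15, 2.38, 0.399 and 0.331 RPKM. Prostaglandin synthases Ptgs1 (31.5, 29.3, 91.5 and 95.6 RPKM) and Ptgs2 (15.9, 27.1, 47.6 and 61 RPKM) were higher and the terminal synthase Ptges (3.45, 6.73, 0.15 and 0.383 RPKM) lower. The MAP kinase feedback inhibitor Spry1 had 9.44, 6.36, 0.62 and 0.541 RPKM, Dusp6 15.4, 15.4, 34.5 and 36 RPKM and Klf4 8.02, 7.35, 24.6 and 22.7 RPKM.

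Of 50 replication and mitosis genes 5 were higher and 1 lower (median 0.11). With the length trend removed 1 was higher, and 2 were in the TNF pair. Mki67, the proliferation marker, has a long transcript and had 22.5, 22.4, 49.4 and 35.5 RPKM. Its difference of 1.12 came to 0.76 with the length trend removed and to 0.65 in the TNF pair. Targets of p53 and cell cycle inhibitors were lower in 9 of 40 and higher in 2, where 7.03% of all genes were lower and 7.39% higher, with a median of -0.52 that was -0.41 with the length trend removed and -0.41 in the TNF pair. With the trend removed 6 were lower, and 5 in the TNF pair. Mdm2, the ubiquitin ligase of p53, had 123, 140.1, 47.6 and 52.1 RPKM, cyclin G1 (Ccng1) 344, 342, 147 and 127 RPKM and Trp53inp1 6.56, 6.91, 1.99 and 1.85 RPKM. Pmaip1, another p53 target, was higher, and Cdkn2b had 3.42, 3.77, 9.54 and 10.4 RPKM. Of the polycomb and DNA methylation genes only Phf19, a reader of polycomb complex 2, passed the size rule, with 1.95, 2.23, 10.3 and 10 RPKM, among 28.

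The 10 largest losses in RPKM itself fell on abundant genes, most of them with short transcripts. Cytosolic ribosomal protein genes summed to 49550.1 RPKM in wild type and 31558 RPKM in Mll1-/-, and 5 of 38 were lower with a median of -0.76. With the length trend removed none was lower and the median was -0.20, and in the TNF pair it was -0.26. Rps12 had 4579, 4525, 1966 and 3129 RPKM and Rpl41 3475, 3527, 1555 and 2638 RPKM, and such genes share reads with pseudogenes. Gapdh had 3293, 2976, 1799 and 2309 RPKM and Ppia 2827, 2683, 1408 and 1896 RPKM. Gains were led by Actb (3673, 3255, 4442 and 4309 RPKM), Rpl7 (1589, 1576, 2302 and 2693 RPKM) and Vcp, the segregase of protein quality control (233, 234, 711 and 675 RPKM). Dstn, which severs actin filaments, had 226, 255, 485 and 546 RPKM, and the tetraspanin-like Tm4sf1 171, 171, 409.7 and 496 RPKM. For Vcp, Dstn and Tm4sf1 the 2 libraries of a label lay closer to each other than to the other label.

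Xist, the RNA that coats the inactive X chromosome of female cells, differed between the labels. It had 7.06, 7.84, 0.0111 and 0.0202 RPKM, from 3508, 3930, 4 and 7 reads, 635-fold (counting interval 248 to 2332) lower in untreated Mll1-/-. Its antisense partner Tsix had 145, 169, 0 and 0 reads, and the 2 overlap, so that without strand their reads cannot be told apart. The Y-linked genes Uty and Eif2s3y had 22, 15, 4 and 6 reads and 2, 5, 6 and 0 reads, under 0.2 RPKM in every library. Y-linked Ddx3y had more, with 0.575, 0.555, 1.2 and 0.681 RPKM from 74, 72, 112 and 61 reads. The part of this difference in the others was not tested.

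Some genes past the size rule stood side by side. Along the gene order, 10997 members could be placed, and 10 runs of 4 or more neighbouring members lay past the size rule in 1 direction, 3 higher and 7 lower. Besides the Hoxc genes, the lower runs include Zfpm2, Oxr1, Angpt1 and Rspo2, with a median of -1.46, and S100a16, S100a3, S100a4 and S100a6, with -1.32. The S100a median was -0.51 in the TNF pair and -0.86 with the length trend removed. Another joins Ifitm2, Ifitm1, Ifitm3, B4galnt4 and Sigirr (-1.61), of which the Ifitm genes are close copies, with a median of -1.05 in the TNF pair and -1.15 with the trend removed. Of the others, Pnp and Pnp2 with Ang and Rnase4 (-1.42) hold copies as well, Fis1, Cldn15, Znhit1 and Plod3 form one (-1.28), and Spcs1, Glt8d1 and Gnl3 reach 4 only with a small nucleolar RNA inside a host gene (-1.08). The higher runs are Dnajb5 to Fam214b with 6 genes including Vcp (1.54), Arhgef39 to Creb3 with 4 including Tpm2 (1.65), and Abca1 to Klf4 with 7 (1.56). With the length trend removed 5 runs of this kind were found.

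Longer stretches of neighbouring genes leaned one way, in a view chosen after these runs had been seen. The 10997 placed members were divided in gene order into 265 blocks of 40, whose medians lay between -0.17 and 0.09 for the middle 50%. In 3 blocks in a row, the 120 measured genes from Mmp16 to Acnat1, the median log2 difference was 0.80 in the untreated pair and 0.78 in the TNF pair. In the untreated pair 114 of the 120 lay above 0, and 40 were higher and 2 lower by the size rule. The stretch holds the Dnajb5 to Fam214b run with Vcp (233, 234, 711 and 675 RPKM) and the Arhgef39 to Creb3 run with Tpm2 (3.2, 3.2, 114 and 115 RPKM). The Abca1 to Klf4 run follows just after it, so the higher runs above are not separate regions. In 4 blocks in a row, 160 genes ending with Rpgrip1, the median was -0.63 in the untreated pair and -0.70 in the TNF pair, with 140 of 160 below 0. The run of Spcs1, Glt8d1 and Gnl3 lies inside these blocks. Removing the length trend left medians of 0.83 and -0.68. A block of 40 from Mrpl15 to Fam135a had a median of 0.71 without and 0.66 with TNF. Of the lower single blocks, Paox to Cd81 had -0.58 without and -0.23 with TNF, Slc25a42 to Dda1 -0.53 and -0.11, and the block that starts with Vamp7 -0.52 and -0.49. With blocks of 20 the highest median was 1.22. The cause of these stretches was not tested.

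**Figure D5:**
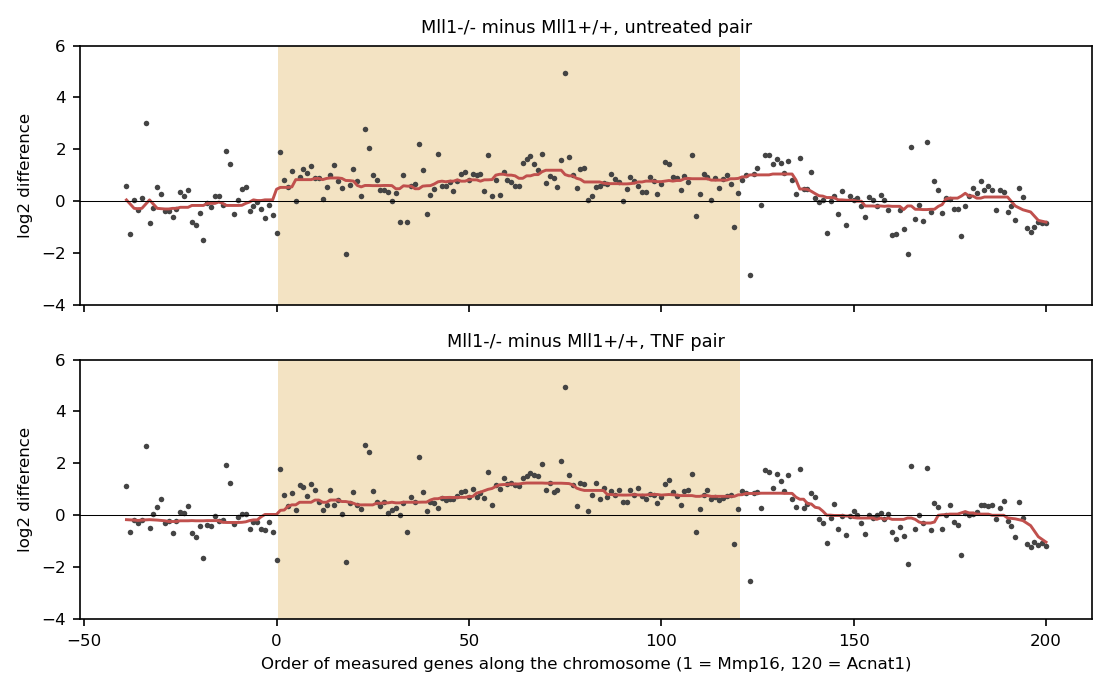
log2 difference of each measured gene (points) and the running median over 21 genes (red line), in gene order along 1 chromosome with Mmp16 as number 1 and Acnat1 as number 120 (shaded), for the untreated pair (top) and the TNF pair (bottom). The running median stays above 0 through the shaded stretch in both pairs and returns to about 0 some 20 genes after it.

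Promoters of genes that differed held fewer CG dinucleotides. RefSeq windows of 300 bases were found for 8784 members. The median count of CG was 17 in the 610 higher genes with a window, 17 in the 599 lower and 22 in the 7575 within the size rule. Fewer than 5 CG were found in 11.1% of the higher, 12.7% of the lower and 3.71% of the other genes. With genes divided into 4 classes of expression level, the medians for higher, lower and other genes were 16, 14 and 19 in the lowest class, 19, 17 and 22 in the next, 19, 19.8 and 22.5 in the next and 16, 19.5 and 23 in the highest. TATAAA on either strand stood in 12.3% of the higher, 13.9% of the lower and 7.85% of the other genes, and in 15.7% of all genes of the promoter table. The letters are a description of the windows and not of any factor that binds there.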

How the data were processed

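mRNA of 4 treated cell populations was sequenced. The submitters' processing notes name TopHat and DESeq, with no version or role; the build, the annotation and the counter were not given in the sources used here. RPKM values, as deposited and per the file headers, cover 27344 transcript entries, of which 20951 could be named by RefSeq accession (20845 through the RefSeq GRCm38.p6 gene table, 106 through GENCODE M21) and 6393 could not. Whole reads were recovered from the RPKM steps within 0.0001 reads for all entries; where the recovered length is a fraction of the true one, reads are a lower bound. Strand is not stated.

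Python 3.11.15 scripts (pandas 2.3.3, NumPy 2.4.6, SciPy 1.17.1, figures with matplotlib 3.10.9) took the entry with the highest mean RPKM per symbol, kept genes with 1 RPKM or more in at least 1 of the 2 libraries, added 0.5 RPKM and took log2 differences, and were checked on data with known changes. The length trend is the median difference in 50 bins of transcript length. Members and the 60 gene lists were chosen with earlier results of these data known. Genes were named by rule: the Mll1 family, the 15 highest and 15 lowest differences at 3 RPKM or more, the 10 largest RPKM gains and losses, up to 5 higher and 5 lower genes of each list (where fewer than 2, the most extreme member; where fewer than 3 passed, the most abundant members), runs of neighbours and cell type markers. Predicted genes and small RNAs were counted, not named, and a few other genes of the rule are not reported here. Alternatives tried: pseudocount, filter, scaling, length trend, choice of entry and unnamed entries.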

Additional observations from a re-analysis of the deposited data

How the results depend on the processing

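No paired analysis was possible because the labels carry no replicate numbers and each group is 1 library, and for the same reason no library could be left out. Pseudocounts of 0.1 and 1 RPKM, filters, scalings, removal of the length trend and the choice of entry were tried on the counts, list medians and named genes. The 813 higher genes became 441 when 5 RPKM was asked for, and the 774 lower became 499 when sums were made equal without the 20 most abundant genes. Of the 60 lists, 25 had a median of 0.5 or more in size, and 7 without a filter. The 10 runs of neighbours became 5 at 5 RPKM and 5 with the length trend removed; fewer genes are tested in the first of these. The promoter difference of -5 CG between genes past the size rule and the rest was -1 without a filter, -4 with sums equal without the 20 most abundant genes and -6 with the length trend removed. Asking that the counting interval lie past 1 as well left 795 higher and 765 lower genes. No named gene past the size rule changed sign, and of the list medians of 0.5 or more the median of neural crest, Schwann cell and glial genes turned to -0.00676 without a filter. Counting intervals set what depth limits: with a single read in Mll1-/-, the Sprr1a ratio had bounds of 269 and 59327.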
